A study of Homo sapiens with 12 samples.

Results

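A copy of TIP60 without catalytic activity was compared with an empty vector in MCF10A cells that kept their own TIP60. MCF10A is a non-tumorigenic line of human breast epithelial cells. TIP60, the product of KAT5, is a lysine acetyltransferase that works in the NuA4 complex, where it acetylates histones and other proteins and takes part in transcription and in the repair of broken DNA. An inactive enzyme can occupy the partners and sites of the active one, which is called a dominant-negative effect, and the comparison asked whether exon choice carried a trace of one. A cassette exon is an exon that the spliceosome either keeps or skips, and its inclusion level is the share of an event's transcripts that keep it.

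The libraries of interest were 2 of cells with stable expression of the catalytically dead, siRNA-resistant TIP60 (*KD-TIP60 in the labels, KD-TIP60 here) and 2 of cells with the empty vector (MSCV), all given control siRNA (siControl) and harvested 72 h after transfection. They are 4 of 12 libraries. The other 8 carried the siRNA-resistant wild-type copy (*WT-TIP60, here WT-TIP60) under siControl, or any of the 3 constructs under TIP60 siRNA (siTIP60), with 2 libraries in each of the 6 groups. All cells held the endogenous KAT5 gene, and the labels give neither the number of clones behind a line nor whether replicates came from separate cultures, so that p-values measure only the spread between these libraries. Events entered when each of the 4 libraries had at least 10 reads that fitted only the form with the exon or only the form without it. This left 3390 events in 2330 genes, of 5852 listed in all 4 libraries and 8712 listed in any of the 12. Of the 3390 events, 198 lie on alternate or unplaced contigs, where the same exon can be listed again.

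The libraries numbered 1 and 2 formed 2 sets. Over all 12 libraries, the share of reads that fitted neither form was 50.1 to 53.2% in the libraries numbered 1 and 64.5 to 65.7% in those numbered 2. The tested events had a median of 87.0 isoform-specific reads in KD-TIP60 replicate 1 and 58.0 in KD-TIP60 replicate 2, against 86.0 in MSCV replicate 1 and 55.0 in MSCV replicate 2. Depth was close within a replicate number, and comparisons were made within numbers. Of the epithelial markers, 8 genes had a tested event, and none of the immune or endothelial markers did. FN1, which encodes the matrix protein fibronectin, was the 1 mesenchymal marker with tested events.

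KAT5 itself showed the construct. Its event holds a 156-nt coding cassette exon on chromosome 11 from 65713348 to 65713503, plus strand (ENSG00000172977.12, hg38). Counting reads of every class, the event took 2861 and 3401 of every 1000000 event reads in the KD-TIP60 libraries, against 43.7 and 47.1 in the MSCV libraries. KD-TIP60 was thus 65.5 times MSCV in pair 1 and 72.2 times in pair 2, and WT-TIP60 cells stood higher still at 6674 and 6836. Most of these reads fitted neither form (10397 and 15027 in KD-TIP60, 135 and 177 in MSCV). Reads of the form without the exon numbered 2054 and 55 in KD-TIP60 and 18 and 1 in MSCV. The form with the exon was at 12.02 and 6.38 reads per 1000000 in KD-TIP60 (25 and 10 reads), against 17.2 and 5.84 in MSCV (37 and 8 reads). The form with the exon was thus lower in KD-TIP60 in pair 1 and higher in pair 2, on few reads, and no difference in it could be told at this depth. KAT5 inclusion was 0.0 and 0.02 in KD-TIP60 and 0.28 and 0.5 in MSCV, and was not tested, because MSCV replicate 2 had 9 isoform-specific reads.

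**Figure D1:**
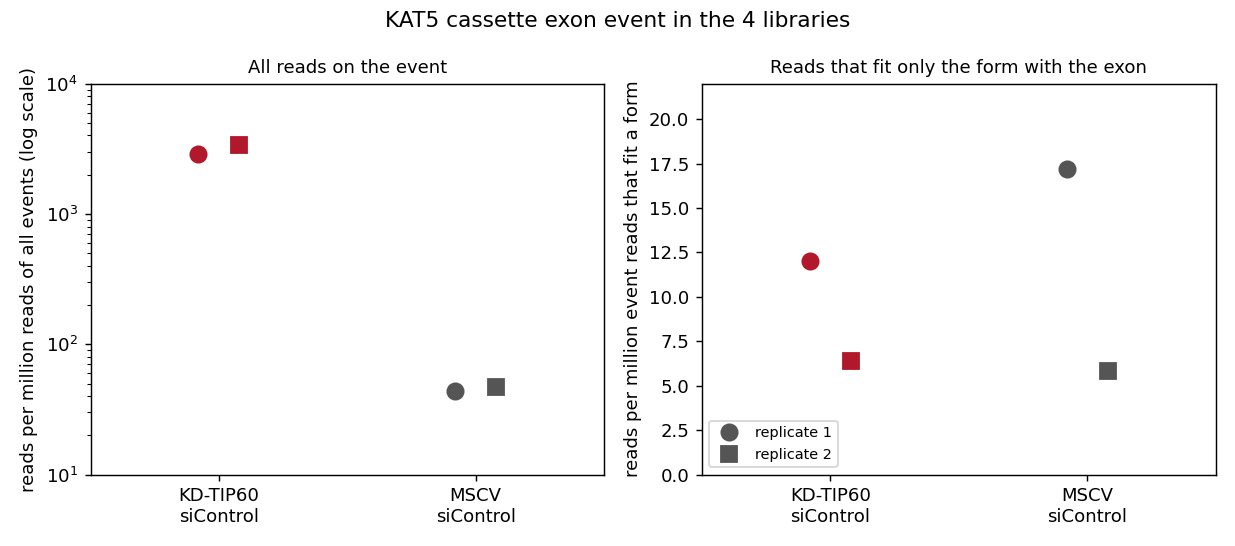
KAT5 event reads in the KD-TIP60 libraries (left in each panel) and the MSCV libraries (right) under control siRNA, by replicate. The left panel has a log axis and shows reads of every class per 1000000 reads of all events, where KD-TIP60 lies at 2861 and 3401 and MSCV at 43.7 and 47.1. The right panel shows reads of the form with the exon per 1000000 event reads, where the groups overlap.

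The exons that carry the comparison are shown from GENCODE release 29 transcripts (GRCh38), 5' to 3', with the last 3 bases in capitals, which are the exon's side of the 5' splice site. The first 3 had small p-values with the inactive copy both under control siRNA and under TIP60 siRNA. GPR161 lies at chr1:168104477-168104894 (minus strand, 418 nt), and its last 150 bases are given. VRK3 lies at chr19:50009236-50009385 (minus strand, 150 nt) and JADE2 at chr5:134576768-134576896 (plus strand, 129 nt).
GPR161: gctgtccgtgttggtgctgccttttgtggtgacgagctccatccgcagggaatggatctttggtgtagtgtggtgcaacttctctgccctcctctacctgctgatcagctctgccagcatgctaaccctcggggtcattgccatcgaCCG
VRK3: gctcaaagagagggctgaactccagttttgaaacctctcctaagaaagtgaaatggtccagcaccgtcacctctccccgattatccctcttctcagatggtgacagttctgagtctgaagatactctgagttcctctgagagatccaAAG
JADE2: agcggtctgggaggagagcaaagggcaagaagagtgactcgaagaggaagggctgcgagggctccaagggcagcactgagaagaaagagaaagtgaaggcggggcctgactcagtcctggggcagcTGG
The other 3 are exons whose inclusion differed widely after TIP60 siRNA and serve to ask whether the inactive copy gave the same difference. MARK3 lies at chr14:103498502-103498528 (plus strand, 27 nt), PPP3CB at chr10:73439872-73439901 (minus strand, 30 nt) and ADD3 at chr10:110132305-110132400 (plus strand, 96 nt).
MARK3: aaacatgtcattcaggtttatcaaAAG
PPP3CB: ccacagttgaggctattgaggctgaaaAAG
ADD3: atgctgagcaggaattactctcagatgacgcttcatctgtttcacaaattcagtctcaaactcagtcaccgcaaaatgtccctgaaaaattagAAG
GPR161 is the 1 exon of these 6 whose length is not a multiple of 3. The annotation places all 6 within the coding sequence of at least 1 transcript of their gene. The first bases of the GPR161 exon were taken as 5' UTR, and for that its last bases alone are shown.

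No exon passed the test between KD-TIP60 and MSCV under siControl. In limma, 0 of 3390 events had an adjusted p under 0.05 (0.0%). At an unadjusted p under 0.05 there were 103 (3.04% of those tested), of which 64 had a higher level in KD-TIP60 (1.89%) and 39 a lower one (1.15%). The other models also gave 0 calls, with 54 events at an unadjusted p under 0.05 in the quasi-binomial model of the reads, 173 on the log2 odds of the reads and 243 when only the 4 libraries were fitted. The sizes were small. The median difference in either direction was 0.02, 264 events (7.79%) differed by 0.1 or more and 24 by 0.2 or more. The 95% interval of the difference lay within 0.2 of 0 for 2612 events (77.1%) and within 0.1 for 1542 (45.5%); a difference of 0.2 lay outside the interval for 77.1% of events, and one of 0.1 for 45.5%.

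The 2 pairs showed little in common. Across the 3390 events the difference in pair 1 and that in pair 2 had a Pearson r of 0.0138 (Spearman rho 0.00678). As a scale, the same calculation for siTIP60 against siControl gave 0.349 in MSCV cells (3334 events) and 0.347 in WT-TIP60 cells (3377 events). The events of a pair share its 2 libraries and are not independent replicates. Levels of both KD-TIP60 libraries lay above both MSCV libraries in 228 events (6.73%) and below both in 210 (6.19%). Gaps of 0.1 or more between the groups were found in 10 events with KD-TIP60 higher (0.295%) and 14 with KD-TIP60 lower (0.413%). Within both same-number pairs, KD-TIP60 was higher by at least 0.1 in 35 events (1.03%) and lower in 39 (1.15%).

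**Figure D2:**
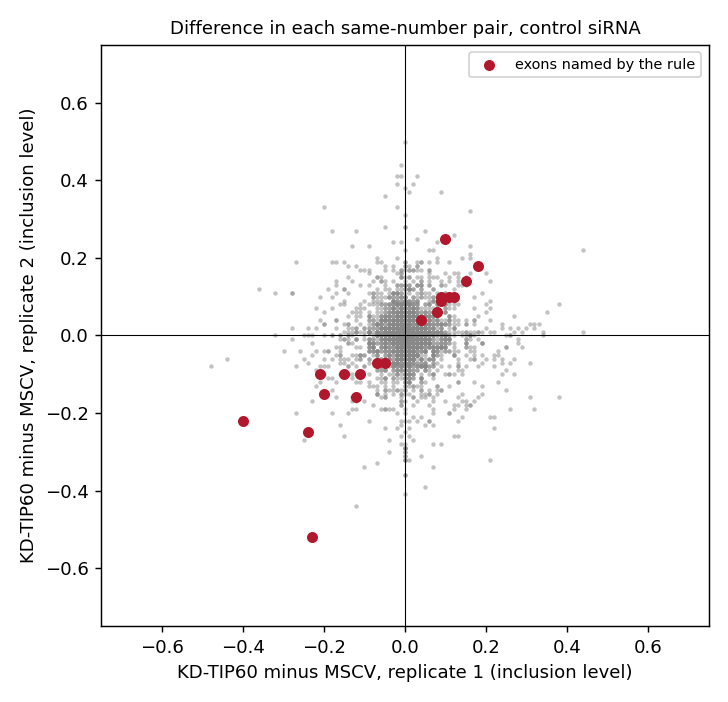
Difference in inclusion level between KD-TIP60 and MSCV under control siRNA for each of 3390 events, replicate 1 on the horizontal and replicate 2 on the vertical axis. Points gather round 0 with no slope (r = 0.0138). Red points are exons named because both KD-TIP60 libraries lay beyond both MSCV libraries, so that their position in 2 quadrants follows from how they were named.

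Of the named exons with lower levels in KD-TIP60, the smallest p belonged to a 5' UTR exon of PDCD10, a scaffold protein of cell junctions and kinase complexes. Its inclusion level was 0.1 and 0.24 in KD-TIP60, 0.15 and 0.27 in WT-TIP60 and 0.23 and 0.34 in MSCV. KD-TIP60 minus MSCV was -0.115 (SE 0.0178, 95% interval -0.158 to -0.072, unadjusted p = 0.000532, limma adjusted p = 1.00). Under siTIP60 the difference was 0.0, with KD-TIP60 at 0.22 and 0.33 and MSCV at 0.23 and 0.32. The difference therefore did not recur in the other 4 libraries. ORMDL1, a regulator of sphingolipid synthesis, had a 5' UTR exon at 0.38 and 0.44 in KD-TIP60, 0.34 and 0.42 in WT-TIP60 and 0.5 and 0.6 in MSCV. Both lines with a copy of TIP60 lay below the vector line there under siControl, while under siTIP60 ORMDL1 was at 0.37 and 0.47 in KD-TIP60, 0.33 and 0.49 in WT-TIP60 and 0.33 and 0.41 in MSCV. CKAP5, which adds tubulin to microtubule ends, had 0.94 and 0.88 in KD-TIP60, 0.98 and 0.92 in WT-TIP60 and 0.99 and 0.95 in MSCV, a difference of -0.06 (SE 0.0124). Under siTIP60 the CKAP5 difference was 0.005.

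GPR161, a receptor of the primary cilium that restrains Hedgehog signalling, had lower levels in KD-TIP60 than in WT-TIP60 and MSCV within each replicate number, under both siRNAs. The 418-nt exon was at 0.8 and 0.74 in KD-TIP60, 0.92 and 0.8 in WT-TIP60 and 0.91 and 0.84 in MSCV under siControl. Under siTIP60 it was at 0.76 and 0.7 in KD-TIP60, 0.92 and 0.89 in WT-TIP60 and 0.93 and 0.85 in MSCV. KD-TIP60 minus MSCV was -0.105 (SE 0.0225, unadjusted p = 0.00306) under siControl and -0.16 (unadjusted p = 0.000302, limma adjusted p = 0.362, the smallest of that comparison) under siTIP60. Under siControl KD-TIP60 minus WT-TIP60 was -0.09 (unadjusted p = 0.00649). KD-TIP60 lay below MSCV in 4 of 4 same-number pairs, and none of the 3 differences passed the correction. The siControl libraries held 41 and 38 isoform-specific reads in KD-TIP60 and 65 and 48 in MSCV. The deposited intervals of these levels were wide and overlapped, 0.55 to 0.98 and 0.52 to 0.95 in KD-TIP60 and 0.76 to 0.99 and 0.63 to 1.0 in MSCV. The exon was singled out after its values were seen.

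UBOX5, which encodes a ubiquitin ligase, had the second largest difference of the named lower exons, at 0.32 and 0.31 in KD-TIP60, 0.71 and 0.42 in WT-TIP60 and 0.72 and 0.53 in MSCV. It rested on 15 and 16 isoform-specific reads in KD-TIP60 and 33 and 17 in MSCV, and the difference was -0.31 (SE 0.0654). Under siTIP60 KD-TIP60 had 0.7 and 0.57 and MSCV 0.68 and 0.52, so that the gap was not seen there. SMARCC2, a core subunit of the BAF chromatin remodeller, had 0.63 and 0.56 in KD-TIP60, 0.95 and 0.79 in WT-TIP60 and 0.84 and 0.66 in MSCV. KD-TIP60 minus MSCV was -0.155 (SE 0.036) and KD-TIP60 minus WT-TIP60 was -0.275 (unadjusted p = 0.00129, limma adjusted p = 0.785). WT-TIP60 lay above MSCV in SMARCC2 by 0.12 (95% interval 0.022 to 0.218). The other named lower exons were in INO80E, a subunit of the INO80 remodeller (-0.125), TMUB2 (-0.175), PIGN of the GPI-anchor pathway (-0.245), NAV2 (-0.375) and BABAM2 of the BRCA1-A complex (-0.07). NAV2 had 31 and 14 isoform-specific reads in KD-TIP60 and 26 and 59 in MSCV, where its levels were 0.65 and 0.92. PIGN had 10 and 10 such reads in KD-TIP60 and 16 and 10 in MSCV, near the read minimum. NAV2, PIGN and SMARCC2 were not tested under siTIP60. SMARCC2 was there at 0.5 and 0.48 in KD-TIP60 and 0.76 and 0.3 in MSCV, so that pair 2 lay the other way. Under siTIP60 the difference was 0.06 in INO80E, 0.04 in TMUB2 and -0.005 in BABAM2. In BABAM2 and PIGN, KD-TIP60 and WT-TIP60 had near the same level, with differences between them of 0.0 and -0.01.

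Among the named exons with higher levels in KD-TIP60, VRK3, a member of the vaccinia-related kinase family, was at 0.88 and 0.84 in KD-TIP60, 0.84 and 0.85 in WT-TIP60 and 0.76 and 0.74 in MSCV. The levels of KD-TIP60 and MSCV did not overlap, and KD-TIP60 minus MSCV was 0.11 (SE 0.0244, 95% interval 0.051 to 0.169, unadjusted p = 0.00372, limma adjusted p = 1.00). Under siTIP60 VRK3 was at 0.83 and 0.87 in KD-TIP60, 0.7 and 0.67 in WT-TIP60 and 0.78 and 0.73 in MSCV. WT-TIP60 thus lay near KD-TIP60 under siControl and below MSCV under siTIP60. CHEK1, the checkpoint kinase that halts the cell cycle after DNA damage, had a 224-nt coding exon at 0.73 and 0.6 in KD-TIP60, 0.77 and 0.61 in WT-TIP60 and 0.55 and 0.42 in MSCV (difference 0.18, SE 0.0431). The deposited intervals of these levels were wide, 0.39 to 0.96 and 0.07 to 0.99 in KD-TIP60 and 0.31 to 0.77 and 0.08 to 0.89 in MSCV. MSCV replicate 2 had 15 isoform-specific reads for it. Under siTIP60 the CHEK1 difference was 0.035. COMMD4 was at 0.97 and 0.98 in KD-TIP60, 0.95 and 0.98 in WT-TIP60 and 0.93 and 0.94 in MSCV. MAP3K7, a kinase of the TGF-beta and NF-kB pathways, was higher by 0.105 and ITGB6, an integrin that activates TGF-beta, by 0.175. PHF1, a Polycomb accessory protein, was higher by 0.09, and an exon of the same length listed on an alternate contig gave the same difference. TMEM9B (0.145) and MAZ (0.07) complete the higher exons for which WT-TIP60 lay near KD-TIP60 under siControl. Under siTIP60 KD-TIP60 minus MSCV was 0.065 in COMMD4, 0.03 in MAP3K7, 0.025 in TMEM9B and 0.015 in MAZ. ITGB6, not tested there, was at 0.84 and 0.76 in KD-TIP60 and 0.84 and 0.78 in MSCV. PHF1, also not tested there, was at 0.92 and 0.91 in KD-TIP60 and 0.84 and 0.88 in MSCV. Under siControl ITGB6 had 23 and 13 isoform-specific reads in KD-TIP60 and 24 and 11 in MSCV. In PLOD2, a lysyl hydroxylase of collagen, WT-TIP60 lay away from KD-TIP60 under siControl: 0.68 and 0.72 in KD-TIP60, 0.56 and 0.55 in WT-TIP60 and 0.59 and 0.62 in MSCV, with KD-TIP60 minus WT-TIP60 at 0.145 (unadjusted p = 0.00122). These comparisons against WT-TIP60 and against MSCV share the KD-TIP60 libraries. PLOD2 was not tested under siTIP60. It was there at 0.83 and 0.65 in KD-TIP60, 0.78 and 0.73 in WT-TIP60 and 0.76 and 0.78 in MSCV, so that pair 2 lay the other way.

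**Figure D3:**
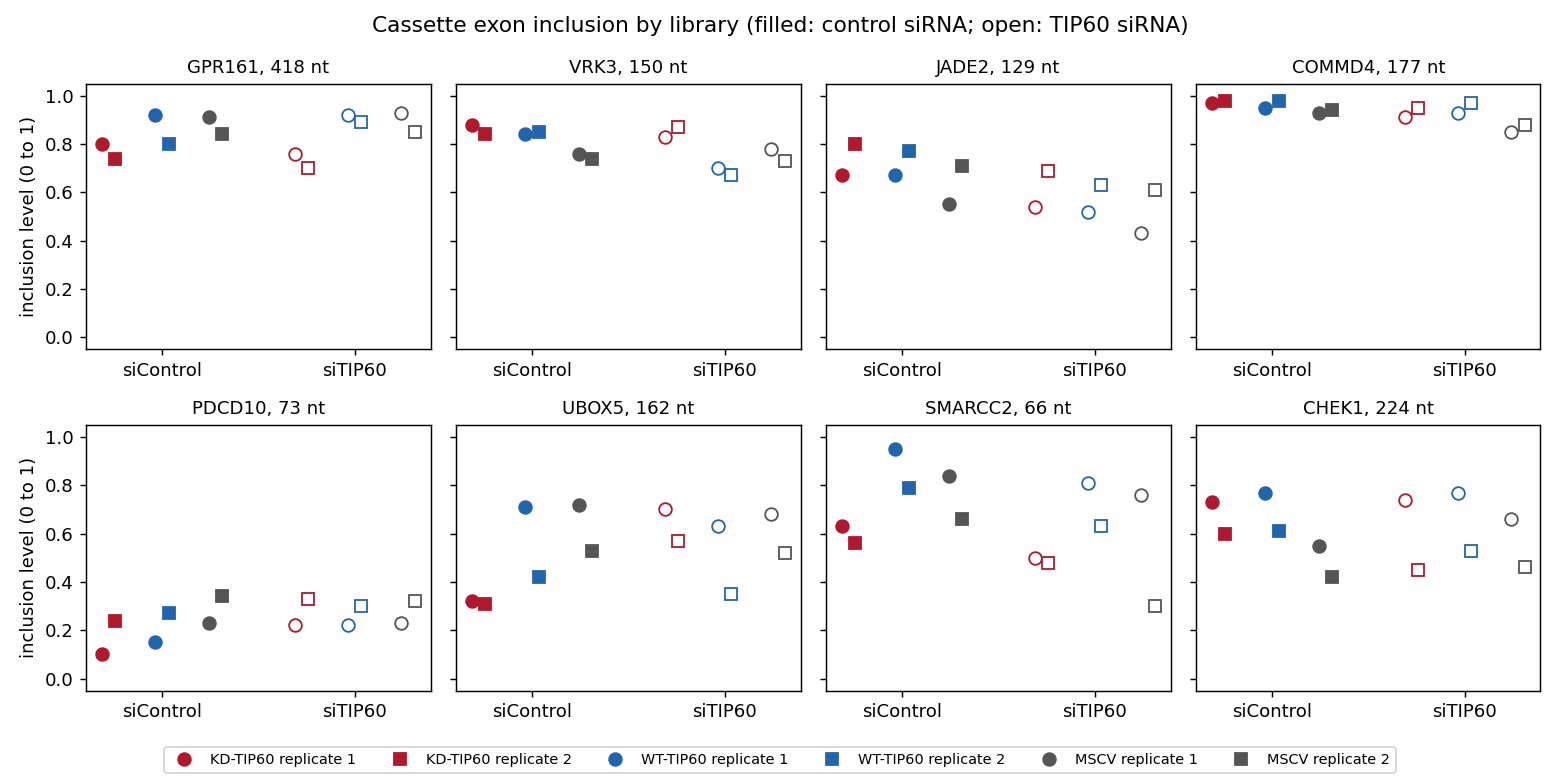
Inclusion level in each library for 8 cassette exons (0 to 1), with KD-TIP60 in red, WT-TIP60 in blue and MSCV in grey, left to right within each siRNA. Filled points are control siRNA and open points TIP60 siRNA, and circles and squares are replicates 1 and 2. GPR161 lies lowest in KD-TIP60 under both siRNAs, VRK3 and JADE2 lie lowest in MSCV within each replicate number under siControl, and the UBOX5 gap between KD-TIP60 and MSCV is seen under control siRNA.

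The siTIP60 libraries of the same 2 lines are 4 further libraries, in which the construct difference could be looked at again. There 0 of 2752 events passed in limma (0.0%, lowest adjusted p 0.362), and 141 (5.12%) fell under 0.05 before adjustment, 63 with KD-TIP60 higher (2.29%) and 78 with KD-TIP60 lower (2.83%). Of the 84 exons at an unadjusted p under 0.05 under siControl that were also tested under siTIP60, 51 lay on the same side of MSCV and 31 on the other, with 2 at no difference. Over all 2752 events 1200 lay on the same side and 1002 on the other. Of the 84, 10 again had an unadjusted p under 0.05 in the same direction (11.9%) and 2 in the other. Of all 2752 events, 86 (3.12%) had one in the same direction under siTIP60 and 40 in the other. The p-values of both arms use 1 shared estimate of an exon's spread, so an exon of small spread passes more readily in both. Across events, the construct differences under the 2 siRNAs had a Pearson r of 0.0954 (2752 events, no library shared).

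The 10 exons were in GPR161, VRK3, JADE2, COMMD4, ARHGAP8, MTFP1, ZFAND6, IFT20, MTRF1L and NME1-NME2, chosen by their p-values in both arms. JADE2, a PHD-finger partner of the HBO1 acetyltransferase, was at 0.67 and 0.8 in KD-TIP60, 0.67 and 0.77 in WT-TIP60 and 0.55 and 0.71 in MSCV under siControl. Under siTIP60 it was at 0.54 and 0.69 in KD-TIP60, 0.52 and 0.63 in WT-TIP60 and 0.43 and 0.61 in MSCV. The JADE2 difference between KD-TIP60 and MSCV was 0.105 under siControl and 0.095 under siTIP60. ARHGAP8 had 0.88 and 0.87 in KD-TIP60 against 0.77 and 0.79 in MSCV under siControl, and 0.9 and 0.91 against 0.84 and 0.77 under siTIP60. In WT-TIP60 the ARHGAP8 exon was at 0.97 and 0.89 under siControl and at 0.76 and 0.75 under siTIP60. MTFP1, a mitochondrial fission protein, was higher by 0.125 and 0.12 in the 2 arms. IFT20, which moves cargo into cilia, was also lowest in KD-TIP60 within each replicate number under both siRNAs: 0.09 and 0.18 in KD-TIP60, 0.1 and 0.26 in WT-TIP60 and 0.18 and 0.31 in MSCV under siControl, and 0.02 and 0.05 in KD-TIP60, 0.05 and 0.14 in WT-TIP60 and 0.04 and 0.22 in MSCV under siTIP60. Of the 10, KD-TIP60 differed from WT-TIP60 under siControl at an unadjusted p under 0.05 only in GPR161; the other 9 differences ranged from -0.055 to 0.035.

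The difference between the 2 arms was also tested, as an interaction. In limma, 0 of 2752 events passed for the inclusion level, with 81 at an unadjusted p under 0.05. PDCD10 had an interaction p of 0.00307 and ORMDL1 one of 0.00159, both unadjusted, each with an adjusted p of 1.00. Both exons were named for their siControl differences, which enter the interaction, so that these p-values are not separate support.

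KD-TIP60 against WT-TIP60 under siControl set the inactive copy against the active one. In limma 0 of 3283 events passed (0.0%), with 94 (2.86%) at an unadjusted p under 0.05, 48 higher (1.46%) and 46 lower (1.4%), and a lowest adjusted p of 0.785. KD-TIP60 cells held fewer KAT5 event reads (2861 and 3401 of every 1000000) than WT-TIP60 cells (6674 and 6836), so that activity and amount of the copy cannot be told apart in this comparison.

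Exons that responded to TIP60 siRNA gave the comparison a yardstick. In these cells TIP60 siRNA gave a lower level of the 27-nt MARK3 exon, a kinase that acts on microtubule-binding proteins, at 0.04 and 0.07 in KD-TIP60, 0.11 and 0.02 in WT-TIP60 and 0.02 and 0.02 in MSCV. Under siControl the exon was at 0.47 and 0.48 in KD-TIP60, 0.26 and 0.31 in WT-TIP60 and 0.36 and 0.41 in MSCV. KD-TIP60 thus lay above MSCV by 0.09 (95% interval 0.006 to 0.174, unadjusted p = 0.0398, limma adjusted p = 1.00) and above WT-TIP60 by 0.19 (unadjusted p = 0.00139, adjusted p = 0.785). With TIP60 siRNA the MARK3 level was lower by 0.365 in MSCV cells.

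The other exons of this kind, chosen with their siRNA response known, had no difference from MSCV at an unadjusted p under 0.05. MYL6, a myosin light chain, was at 0.79 and 0.8 in KD-TIP60 and 0.63 and 0.86 in MSCV, a difference of 0.05 (95% interval -0.091 to 0.191), against -0.505 with TIP60 siRNA in MSCV cells. ARHGAP17 was at 0.6 and 0.82 in KD-TIP60 and 0.59 and 0.77 in MSCV (interval -0.042 to 0.102, siRNA -0.44). SBF1, a myotubularin-related protein, was at 0.61 and 0.82 in KD-TIP60 and 0.58 and 0.72 in MSCV (interval -0.026 to 0.156, siRNA -0.47). HDAC7, a histone deacetylase, had an exon at 0.58 and 0.77 in KD-TIP60, 0.78 and 0.91 in WT-TIP60 and 0.5 and 0.7 in MSCV. KD-TIP60 minus WT-TIP60 was -0.17 there (unadjusted p = 0.00874). PPP3CB, a calcineurin subunit, was at 0.59 and 0.5 in KD-TIP60 and 0.62 and 0.5 in MSCV (interval -0.101 to 0.071, siRNA 0.35). ABI1, an adaptor of the WAVE complex that drives actin assembly, was at 0.68 and 0.71 in KD-TIP60 and 0.62 and 0.86 in MSCV. HNRNPC and AKT2 differed by 0.015 and -0.015. The siRNA values in MSCV share the MSCV siControl libraries with the comparison and stand beside it only as a scale.

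The widest departures from MSCV were in SLC37A2 and ADD3. SLC37A2, a sugar-phosphate transporter, lay in the direction of the siRNA response, at 0.4 and 0.57 in KD-TIP60, 0.7 and 0.53 in WT-TIP60 and 0.58 and 0.68 in MSCV, a difference of -0.145 (95% interval -0.328 to 0.038), against -0.47 with TIP60 siRNA in MSCV. ADD3, an adducin of the spectrin network, lay the other way: it was at 0.05 and 0.04 in KD-TIP60, 0.1 and 0.26 in WT-TIP60 and 0.22 and 0.16 in MSCV, a difference of -0.145 (95% interval -0.351 to 0.061), against 0.46 with TIP60 siRNA. The 16 other tested events of these genes differed by -0.035 to 0.055, with a lowest unadjusted p of 0.156. Under siTIP60 SLC37A2 was at 0.13 and 0.15 in KD-TIP60, 0.64 and 0.64 in WT-TIP60 and 0.12 and 0.2 in MSCV. Its siRNA difference in WT-TIP60 cells was 0.025. Under siControl, replicate 2 held 12 isoform-specific reads for SLC37A2 in KD-TIP60 and 17 in MSCV. Whether its level in KD-TIP60 depends on TIP60 activity was not tested.

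A second set was picked by the siRNA difference between libraries that the comparison does not use, those of WT-TIP60 cells, with a p-value whose spread came from all 12 libraries. It holds 40 events with an unadjusted p under 0.01 for the siRNA and levels apart by at least 0.1. With TIP60 siRNA 32 of them were lower and 8 higher, with a median size of 0.235. WT-TIP60 cells carried the siRNA-resistant active copy, so that the set cannot tell whether TIP60 activity was lost in KD-TIP60 cells. KD-TIP60 lay off MSCV in the direction of the siRNA response in 17 and in the other direction in 23, a median of -0.015 when signed by the siRNA response. Among all 2787 events with a WT-TIP60 siRNA difference, 1177 had the same direction (42.2%), 1354 the other and 256 no difference. Of the 40, 42.5% had the same direction and 0 had no difference, so that these shares have unlike bases. The 95% interval of KD-TIP60 minus MSCV left out the full siRNA difference in 37 of the 40, against 470 of the 2787. The 40 were picked for siRNA differences that are large beside the same shared standard error, so that a value near 0 leaves them out. The exceptions were MYNN, GPBP1 and an exon on an alternate contig. At an unadjusted p under 0.05, 0 of the 40 lay in the siRNA direction and 3, in VRK3, MARK3 and ARHGAP8, in the other, against 35 and 56 of the 2787. Of the 40, 6 lie on alternate contigs, and 5 of these have the length of an EHMT2 exon that is also among the 40. On primary chromosomes alone, 12 of 34 lay in the siRNA direction and 22 in the other, and 32 of the 34 intervals left out the siRNA difference. Across 3104 events, KD-TIP60 minus MSCV and the siRNA difference in WT-TIP60 had a Pearson r of -0.073.

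**Figure D4:**
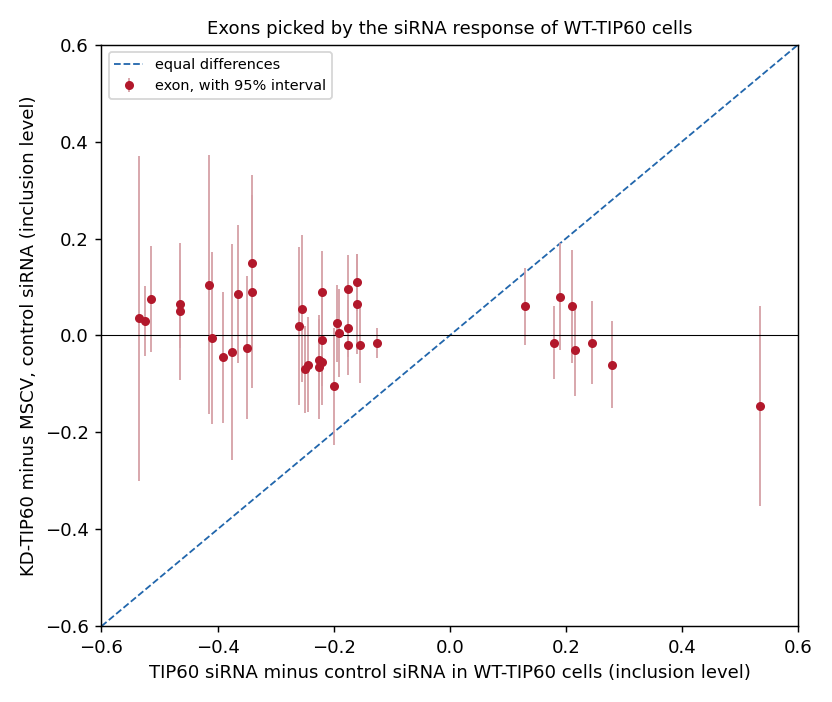
The 40 events picked by their response to TIP60 siRNA in WT-TIP60 cells. The horizontal axis is that siRNA difference and the vertical axis KD-TIP60 minus MSCV under control siRNA, both in inclusion level, with 95% intervals. The dashed line marks equal differences, and the points lie round 0 on the vertical axis, with 37 of 40 intervals leaving out the siRNA size, against 470 of 2787 over all events, from which the 40 were picked for large siRNA differences.

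Gene lists gave no group with called members. All had 0 events past the correction in limma, set beside 3.04% of all tested events at an unadjusted p under 0.05. The NuA4/TIP60 complex itself had 7 tested events in 4 genes, 0 at an unadjusted p under 0.05 and differences of 0.0 to 0.08. In it, BRD8, a bromodomain subunit, was at 0.86 and 0.87 in KD-TIP60 and 0.87 and 0.7 in MSCV, and MORF4L2 at 0.83 and 0.35 in KD-TIP60 and 0.73 and 0.37 in MSCV. The DNA damage response had 3 of 23 events at an unadjusted p under 0.05: CHEK1 higher (0.18), and BABAM2 (-0.07) and UIMC1 (-0.15) lower. The CHEK1 levels had the wide intervals given above. The epithelial-mesenchymal splicing programme had 3 of 54, which were MAP3K7 (0.105), MARK3 (0.09) and CTNND1 (-0.145). Of chromatin enzymes 2 of 27 did, JADE2 higher and SMARCC2 lower. SR proteins had 1 of 11, TRA2A, a splicing activator, at 0.21 and 0.26 in KD-TIP60, 0.33 and 0.25 in WT-TIP60 and 0.08 and 0.13 in MSCV. The hnRNP and splicing regulator list had 1 of 27, SF1 (0.08), which binds the branch point. The actin and adhesion list had 1 of 68, FLNA (0.05), and apoptosis 1 of 28, PDCD10. The p53 targets (14 events), cell cycle (28), RNA decay (8), interferon response (15) and epithelial marker (14) lists had 0. Median differences of the lists ranged from -0.008 to 0.02 where more than 1 gene was tested, against 0.0 over all events.

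Small p-values were found across exon lengths and levels. An unadjusted p under 0.05 was found for 1.34% of the 224 exons up to 50 nt, 3.19% of the 2791 exons of 51 to 250 nt and 2.93% of the 375 longer ones. Exons whose length is a multiple of 3 had 2.77% (of 1947) and the others 3.4% (of 1443). Exons at a middle level in MSCV, from 0.2 to 0.8, had 5.65% (of 903), against 1.9% of those up to 0.2 and 2.16% of those over 0.8, and their median standard error was 0.065.

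The event reads serve as a stand-in for expression, since the files hold no gene counts. They are reads that fitted a form, per 1000000 such reads of the library, compared as log2 of that value plus 0.5. In limma, 0 of 3390 events passed (0.0%). At an unadjusted p under 0.05 there were 59 (1.74%), 49 with KD-TIP60 higher (1.45%) and 10 with KD-TIP60 lower (0.295%). KD-TIP60 lay above MSCV in both libraries in 132 events (3.89%) and below in both in 138 (4.07%). A 2-fold excess in both pairs was seen in 2 events (0.059%), LRIF1 and NAA60, the second outside the naming rule and named after its values were seen (29.8 and 20.4 in KD-TIP60, 12.6 and 9.5 in MSCV). Under siTIP60, limma called 0 of 3289 events, and 103 (3.13%) fell under 0.05 before adjustment, 62 higher (1.89%) and 41 lower (1.25%). With 1 event per gene the siControl count was 22, 15 higher and 7 lower. It was 179 without MSCV replicate 2 (78 higher, 101 lower), 85 without MSCV replicate 1 (60 and 25), 10 without KD-TIP60 replicate 1 (6 and 4), 23 without KD-TIP60 replicate 2 (12 and 11) and 0 without the replicate block, so that neither the count nor its split held. Across events, pair 1 and pair 2 had a Pearson r of -0.271, and the standard error of the log2 difference had a median of 0.33. In bulk libraries, fewer cells of a type and less RNA per cell cannot be told apart.

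The largest of the named events with more reads in KD-TIP60 was LRIF1, a nuclear receptor-interacting factor that also binds heterochromatin protein, at 34.1 and 28.7 reads per 1000000 in KD-TIP60, 22.7 and 13.3 in WT-TIP60 and 11.6 and 13.1 in MSCV. Its log2 difference was 1.31 (SE 0.48, unadjusted p = 0.0237, limma adjusted p = 1.00), and under siTIP60 1.09 (unadjusted p = 0.0492, limma adjusted p = 0.999). Under siTIP60 LRIF1 was at 58.8 and 24.3 in KD-TIP60 and 13.1 and 23.5 in MSCV, with the gap almost all in pair 1. LRIF1 had between 18 and 71 reads in the 4 siControl libraries. LRRC75A-AS1, an RNA that hosts small nucleolar RNAs, was at 2967 and 3740 in KD-TIP60, 2751 and 3926 in WT-TIP60 and 1813 and 2843 in MSCV (log2 difference 0.55, SE 0.13). ZFAS1, also a host of small nucleolar RNAs, was at 274 and 280 in KD-TIP60, 336 and 325 in WT-TIP60 and 197 and 175 in MSCV (0.58, SE 0.23). With reads that fitted neither form included, the ZFAS1 difference was -0.02. The mitochondrial genes ECSIT (0.54) and PISD (0.45) were also among them. Under siTIP60 the log2 difference was 0.157 in LRRC75A-AS1, 0.548 in ZFAS1, 0.046 in ECSIT and -0.079 in PISD.

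Events with fewer reads in KD-TIP60 included ECM1, an extracellular matrix protein, at 21.6 and 24.9 in KD-TIP60, 16.1 and 9.96 in WT-TIP60 and 65.2 and 35.1 in MSCV. Its log2 difference was -1.03 (SE 0.39, unadjusted p = 0.0269). ANKEF1 was at 21.6 and 24.3 in KD-TIP60, 33.3 and 40.5 in WT-TIP60 and 44.7 and 44.6 in MSCV (-0.95, SE 0.32). KLF6, a zinc finger transcription factor, was at 1445 and 2124 in KD-TIP60 and 2766 and 2186 in MSCV, with the gap mostly in pair 1. F3, the tissue factor of blood clotting, was at 1189 and 1229 in KD-TIP60 and 2211 and 1479 in MSCV. FAM69A (-0.89) and NDUFC1 (-0.61) complete the named events, and NDUFC1 was higher in KD-TIP60 under siTIP60 (0.62). The siTIP60 difference was -0.297 in ECM1, -0.684 in ANKEF1, 0.015 in KLF6, -0.457 in F3 and -0.762 in FAM69A.

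**Figure D5:**
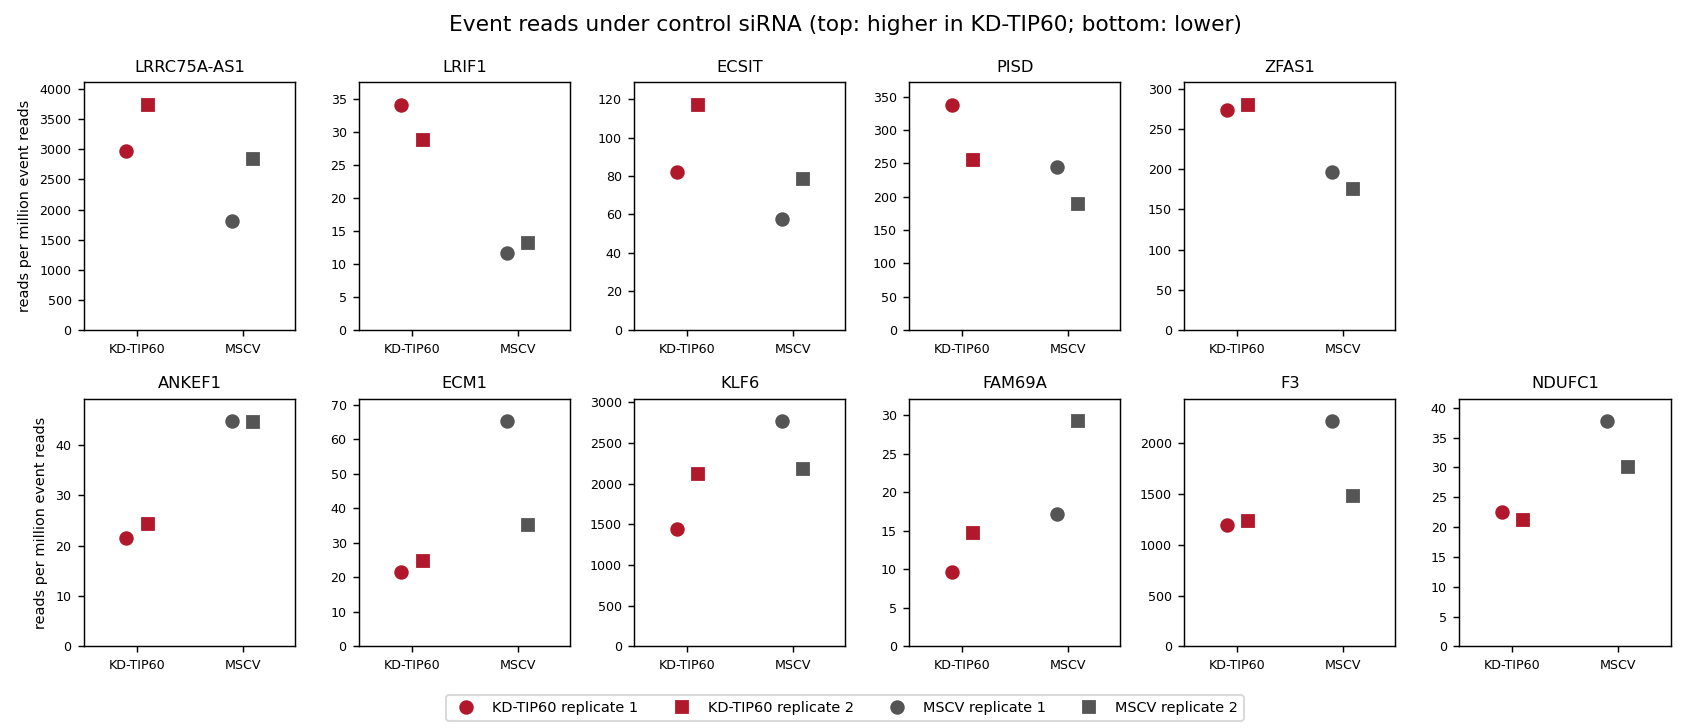
Event reads per 1000000 event reads in KD-TIP60 (left) and MSCV (right) under control siRNA for named events, with circles for replicate 1 and squares for replicate 2. Each panel's axis starts at 0. LRIF1 lies at 34.1 and 28.7 in KD-TIP60 and 11.6 and 13.1 in MSCV, and the 2 ANKEF1 libraries of KD-TIP60 lie below both of MSCV.

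Many of the events with more reads in KD-TIP60 came from few genes. As a description chosen after the values were seen, 14 events of 4 host genes of small nucleolar RNAs were higher in KD-TIP60 in both pairs, with a median log2 difference of 0.65, and 18 of 25 events of 17 ribosomal protein genes were, with a median of 0.26. With reads that fitted neither form included, the median was 0.44 for the host genes, with 12 of 14 events higher and 2 lower, and 0.25 for the ribosomal protein genes. By host gene, the medians with those reads were 0.66 in C6orf48, 0.44 in LRRC75A-AS1, 0.22 in TPT1 and -0.02 in ZFAS1. Over all 3390 events 680 were higher in both pairs (20.1%) and 664 lower (19.6%), with a median of -0.01. Events of 1 gene share reads. The 3 FN1 events had log2 differences of 0.71 to 0.80.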

How the data were processed

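Total RNA of 12 libraries was sequenced from a stranded mRNA kit, per the labels. Reads were aligned with STAR to hg38, per the submitters' processing notes; the sources used here name no version. The deposited inclusion level is a fraction, per the file headers the MISO posterior mean, with the bounds of an interval. The deposited tables also give, per event, read numbers by class in a text field, which were parsed here. Events were placed on GENCODE release 29.

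Levels were compared with limma 3.58.1 in R 4.3.3: 6 groups plus the replicate number, all 12 libraries, an empirical Bayes trend on mean log2 isoform-specific reads, robust, Benjamini-Hochberg over all events, threshold 0.05, two-sided. A library with fewer than 10 such reads was missing; 695 events had a missing value in another library. Event reads were compared as log2(RPM + 0.5), RPM being reads per 1000000 event reads. The replicate number was in the model because the comparison was set to be paired by it. R2 minus R1 deviations of the 6 groups correlated at 0.688 to 0.767 for inclusion and 0.526 to 0.916 for event reads. Libraries of 1 number thus share a shift, which does not show that single samples were paired. The 4 siControl libraries held 1368876 to 2148196 event reads. Scripts were tested on simulated data.

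Members, lists and the rule for named exons were chosen with earlier results of these data known. The rule took KAT5; the 10 exons each way of smallest p among those with both KD-TIP60 libraries beyond both MSCV libraries; 6 event-read events each way, of which 1 is not reported here; the 2 smallest p of each list; and exons responding to TIP60 siRNA. With 2 libraries against 2, no exact two-sided p falls below 0.333. Alternatives changed the block, libraries, read minimum, scale, model, contigs, interval width, pseudocount, size factors and left-out libraries.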

Additional observations from a re-analysis of the deposited data

How the results depend on the processing

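The count of exons past the correction between KD-TIP60 and MSCV under siControl was 0 with no replicate block (39 at an unadjusted p under 0.05, against 103 with the block), and 0 in every alternative run except leaving out 1 library. Leaving out single libraries gave 0 to 10. The 10 came without MSCV siControl replicate 1, and all are listings of 1 stretch of C6orf48 on chromosome 6 and its alternate contigs, named after its values were seen, with levels of 0.0 and 0.17 or 0.18 in KD-TIP60 and 0.0 and 0.46 to 0.58 in MSCV. Under siTIP60 the count ranged from 0 to 2 without single libraries: 1 (CHP1) without MSCV replicate 2, and 2 (ADAM15 and MPZL1) without KD-TIP60 replicate 1. KD-TIP60 against WT-TIP60 stayed at 0. The count for event reads under siTIP60 was 1 (ALDH3A1) with only the 4 libraries of the comparison.

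Of 67 named results, 55 kept their direction in every setting run and 12 turned in at least 1, none of them past the threshold. Leaving out single siControl libraries gave these ranges, lowest to highest: MYL6 -0.049 to 0.149, MORF4L2 -0.017 to 0.097, PPP3CB -0.039 to 0.009, BRD8 -0.044 to 0.204, an FN1 exon -0.0625 to 0.0125, ARHGAP17 -0.011 to 0.071, ABI1 -0.141 to 0.051, SRSF10 -0.1075 to 0.0075, HNRNPC -0.002 to 0.032 and CNOT8 -0.052 to 0.002. On log2 odds MORF4L2 was -0.12 and PML -0.13, and in the quasi-binomial model PML was -0.13 and SRSF10 0.0825. ZFAS1 event reads were -0.02 with all reads. The cause of these turns was not tested. The interval width, the contigs and the reads counted were alternatives chosen after seeing the data. Exons at a level of 0.2 to 0.8 in MSCV had a median standard error of 0.065.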
